A study of Rattus norvegicus with 9 samples.

Results

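The transcription factors that establish and keep the hepatocyte's identity were followed in rat liver: Hnf4a, Foxa1, Foxa2, Foxa3, Cebpa, Cebpb, Prox1, Onecut1 and Nr5a2. These 9 genes were chosen by name out of the 32883 genes of the deposited tables, and all 9 were present and passed the filter on low counts.

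The factors form a dense network in which most members bind the promoters and enhancers of the others. Hnf4a and Nr5a2 (also known as LRH-1) are nuclear receptors, the FOXA proteins are forkhead pioneer factors that open chromatin at liver enhancers, Cebpa and Cebpb are leucine-zipper paralogs, Onecut1 (also known as HNF6) is a cut-homeodomain protein and Prox1 is a homeodomain protein. Together they drive plasma protein, lipid, bile acid and amino acid genes, and several of them also occur outside hepatocytes: Foxa1, Foxa2 and Onecut1 in bile duct cells, Prox1 in lymphatic endothelium and Cebpb in myeloid cells.

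Bulk RNA-seq was performed on liver tissue of male Sprague-Dawley rats aged 8 to 11 weeks, in 3 groups of 3 livers. The livers labelled normal came from rats without liver failure. Both other groups came from rats with acute-on-chronic liver failure (ACLF), produced by ligation of the bile duct, left in place for 21 days, and by then giving lipopolysaccharide (LPS, 0.25 mg/kg) intraperitoneally, and both were connected to an extracorporeal whole blood circuit for 2 h, starting 1 h after LPS. In the empty group the circuit held neither cells nor leukocyte-adsorbing column, whereas in the UTOpiA group it held a granulocyte and monocyte apheresis column in tandem with alginate-encapsulated hepatocyte-like organoids derived from genome-edited human iPSCs. ACLF livers were taken 24 h after LPS from randomly chosen survivors, so both groups hold only rats alive at that time. Normal livers differed from ACLF livers in ligation, LPS and circulation together, which cannot be told apart, and the labels call the 3 samples of a group biological replicates.

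Sequencing gave 14241172 to 17321677 assigned counts per liver. Albumin made up 13.3% to 14.9% of all counts in normal livers. Its share was 1.65%, 3.91% and 1.58% in the empty livers (replicates 1, 2 and 3 in this order, as throughout), while the UTOpiA livers had 3.59%, 1.54% and 3.31%. Empty replicate 2 thus stood with UTOpiA replicates 1 and 3, and UTOpiA replicate 2 with the other empty livers. The summed level of 8 hepatocyte markers (in TPM, a transcript abundance scaled by gene length and library) was 147726 to 160671 in normal livers, 33754, 55181 and 30726 in empty livers, and 55191, 35985 and 49518 in UTOpiA livers. Albumin was most of this sum in normal livers, but less than Serpina1 and the other markers together in empty replicates 1 and 3 and in UTOpiA replicate 2. In ACLF livers a large part of the rest was Serpina1, the gene of the protease inhibitor alpha-1 antitrypsin, which averaged 7285 TPM in normal livers, 10896 in empty livers and 14009 in UTOpiA livers. Without albumin, empty livers (17887 to 21574 TPM) lay below UTOpiA livers (22657 to 25256 TPM), whereas without albumin and Serpina1 they overlapped, at 6610, 12502 and 7562 TPM in empty livers and 12023, 8452 and 8375 TPM in UTOpiA livers, against 25379 to 26512 TPM in normal livers. Both omissions were chosen after seeing the data and not tested. The sum of 7 cholangiocyte markers was 14.6 to 24.8 TPM in normal livers, 323 to 669 in empty livers and 134 to 425 in UTOpiA livers, and all 7 were called higher in each ACLF group than in normal livers. The sum of 5 neutrophil markers was 2.15 to 5.24, 177 to 1090 and 172 to 500 TPM in the same order, with 4 of 4 tested called higher in each ACLF group, while the granule enzyme Mpo had at most 3 counts in any liver. In bulk tissue fewer hepatocytes and less RNA per hepatocyte cannot be told apart, and the part of these cell type shifts in the results below was not tested.

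**Figure D1:**
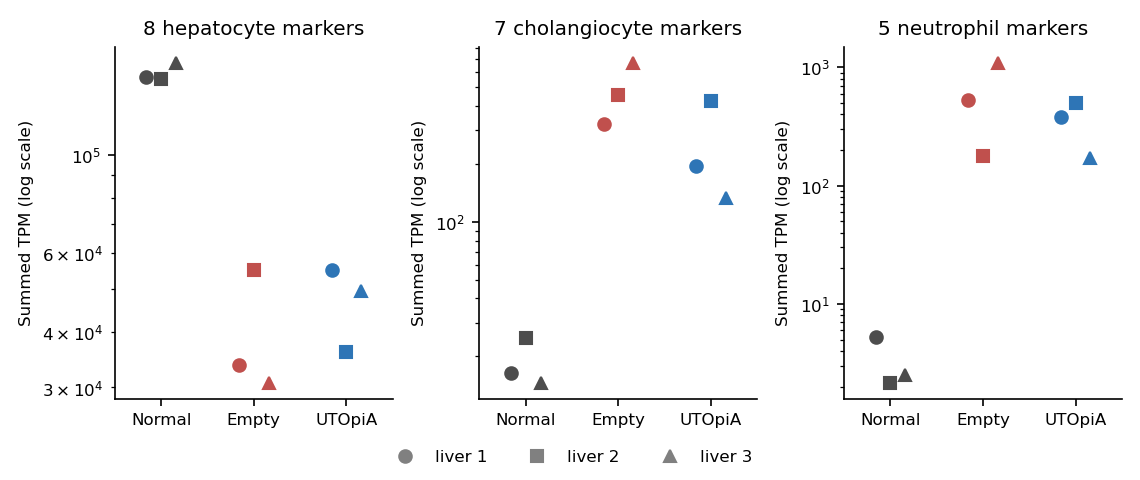
Summed TPM (log axis) of the hepatocyte, cholangiocyte and neutrophil markers in each liver, with groups on the horizontal axis and 1 symbol per replicate number. All 6 ACLF livers lie below the normal livers for hepatocyte markers and above them for the other lists, and the hepatocyte sums, which include albumin, overlap between the empty and UTOpiA groups.

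In normal livers, Cebpa was the most abundant of the 9 per transcript length, at 205 ± 31.1 TPM (SD, n = 3), followed by Hnf4a at 173 ± 6.65 TPM and Cebpb at 75.4 ± 9.62 TPM. The livers of these 3 genes and of Foxa2 (31.1 ± 13.2 TPM) did not overlap from step to step in that order, although the lowest Cebpa value of 180 TPM lay just above the highest Hnf4a value of 179 TPM. Prox1 (23.5 ± 0.944 TPM), Nr5a2 (21.8 ± 1.40 TPM), Onecut1 (21.01 ± 10.5 TPM), Foxa3 (19.9 ± 1.79 TPM) and Foxa1 (19.1 ± 5.12 TPM) followed, each overlapping the next. In the empty group the order opened with Cebpb at 127 ± 60.1 TPM, then Hnf4a at 106 ± 20.3 TPM and Cebpa at 91.0 ± 27.7 TPM, and the values of neighbours in this order overlapped. In the UTOpiA group Cebpa (128 ± 31.8 TPM) and Hnf4a (125 ± 16.7 TPM) overlapped and Cebpb, at 80.0 ± 8.99 TPM, lay below every Hnf4a value. Prox1 and Hnf4a varied least among normal livers, with a coefficient of variation of 4.01% and 3.85%, and Onecut1 varied most, at 50.0%.

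**Figure D2:**
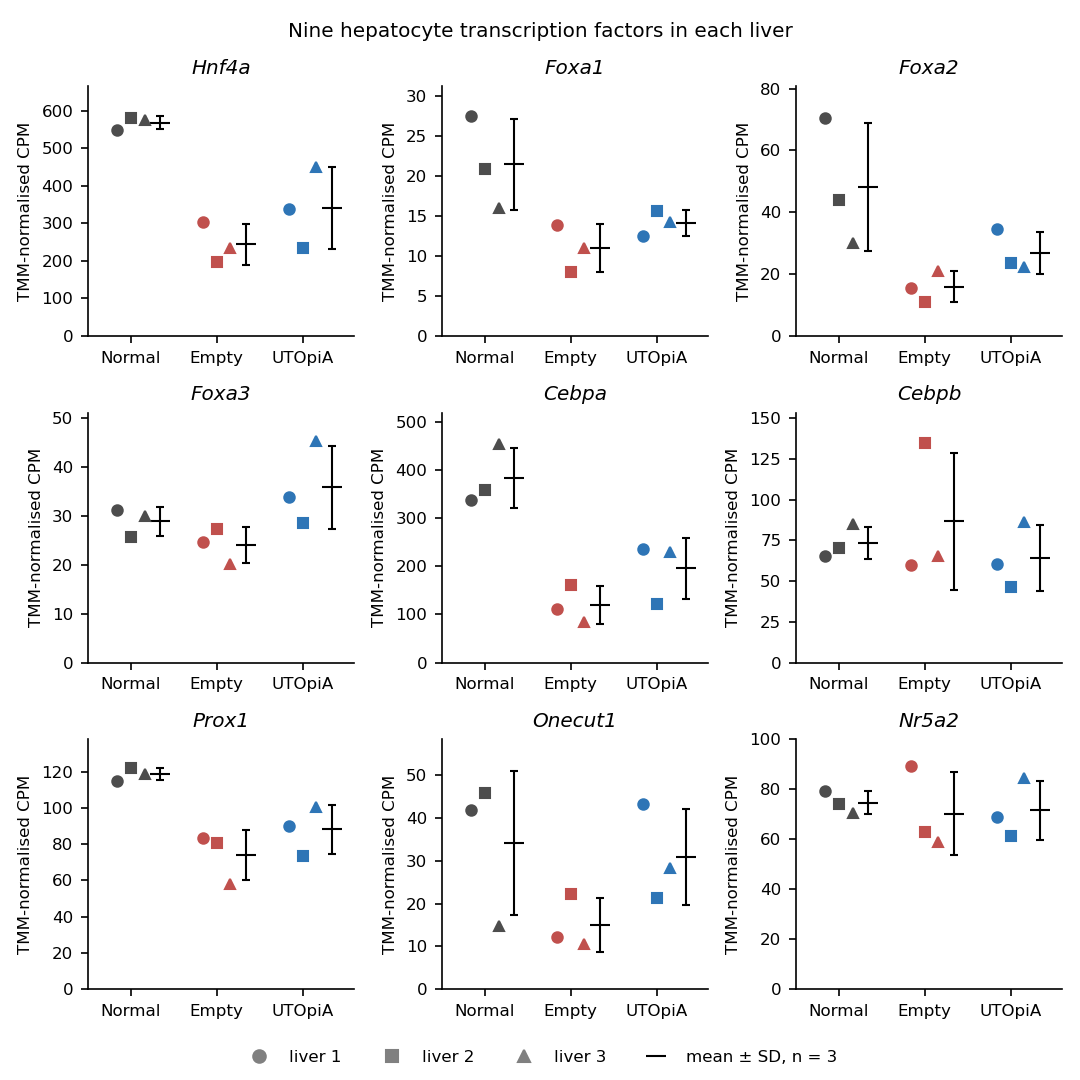
Level of each of the 9 factors in each liver, in TMM-scaled CPM (linear axes from 0), with 1 symbol per replicate number and the mean ± SD (n = 3) beside each group. Hnf4a, Cebpa and Prox1 are lower in all 6 ACLF livers than in any normal liver, whereas Foxa3, Cebpb and Nr5a2 overlap between normal and empty livers.

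Empty livers were compared with normal livers to see how the factors stood in failing livers given a circuit without cells. Of the 9 factors, 3 were called lower in the empty group (Hnf4a, Foxa2 and Cebpa) and 0 higher, where a call needed an adjusted p under 0.05 over all genes and a change above 2-fold in edgeR's quasi-likelihood test with Benjamini-Hochberg adjustment. Over all 14089 genes tested, 11.1% were called lower and 20.7% higher. The count depended on the processing, with 2 called (Foxa2 and Cebpa) under library-total scaling and 1 (Cebpa) in each of 3 limma settings on log2 TPM. DESeq2 called 4, adding Onecut1, and leaving out normal replicate 3 gave 5, adding Foxa1 and Onecut1. Without the fold requirement 5 factors were lower, Foxa1 and Prox1 in addition to the 3 called, against 21.5% of all genes. These 5 were also the factors whose empty livers all lay below all normal livers in CPM, an arrangement found in 28.8% of genes. In TPM 3 of the 9 (Hnf4a, Cebpa and Prox1) had it, with no share of all genes computed. The median log2 fold change of the 9 was -0.96, and that of all genes tested was 0.045.

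UTOpiA livers were compared with empty livers to ask what differed with the loaded circuit, and none of the 9 factors was called in either direction. The same held for all genes: edgeR called 0 of 14089, which is 0% (smallest adjusted p = 0.170), with an unadjusted p under 0.05 for 1456 genes, or 10.3%, while DESeq2 called 52 genes higher and 74 lower, none of them among the 9. Without empty replicate 2 edgeR called 26 higher and 22 lower, and without UTOpiA replicate 2 it called 32 and 17, again none among the 9. Foxa3, Cebpa and Onecut1 had an unadjusted p under 0.05 in edgeR, but adjusted p-values of 0.395, 0.469 and 0.481. The estimates of 8 of the 9 were above 0, with a median log2 fold change of 0.48 beside 0.0012 for all genes. Both this comparison and the previous one use the empty livers, so a chance low or high value there moves both in opposite directions.

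UTOpiA livers were compared with normal livers to see how far the treated livers stood from health, and again none of the 9 was called, where 18.2% of all genes were called higher and 6.81% lower. Without the fold requirement, Cebpa alone was lower in edgeR's quasi-likelihood test (log2 fold change -0.97, adjusted p = 0.0335), in a comparison where 16.2% of all genes were. With library-total scaling Cebpa was at -0.64 (edgeR adjusted p = 0.0676). In CPM, 4 of the 9 (Hnf4a, Foxa1, Cebpa and Prox1) were lower in every UTOpiA liver than in any normal liver, as were 26.1% of all genes. In TPM 2 of the 9 were, Hnf4a and Cebpa. In DESeq2, Hnf4a had an adjusted p of 0.0145, at a log2 fold change of -0.75. Foxa1, Foxa2, Foxa3, Cebpa and Prox1 also reached an adjusted p under 0.05 in at least 1 of the 20 alternative settings, Foxa3 on the higher side.

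**Figure D3:**
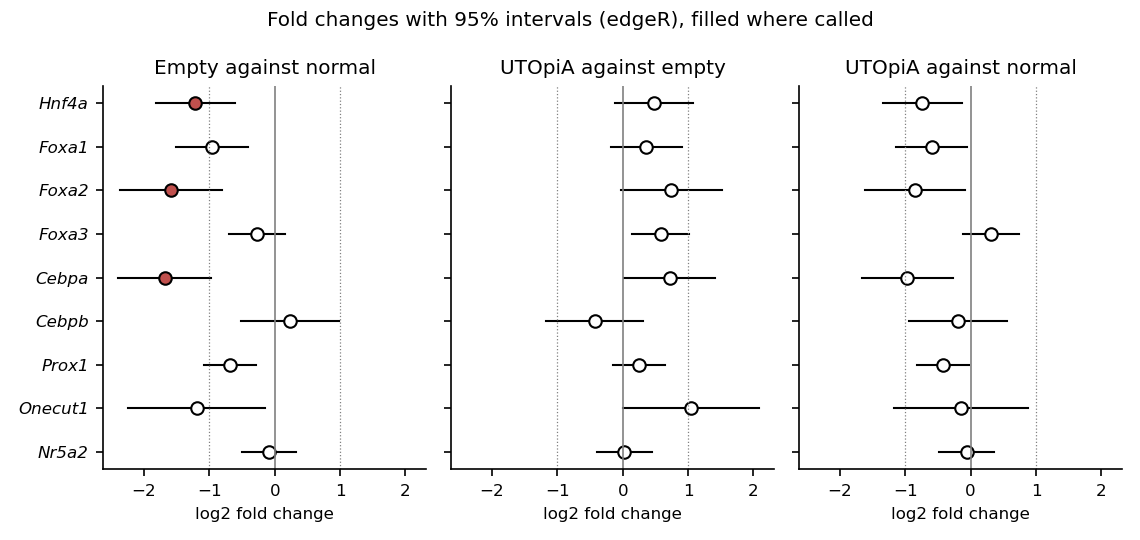
Log2 fold change of each factor with its 95% interval from edgeR in the 3 comparisons, filled where called. The dotted lines mark 2-fold changes. Filled points are found for Hnf4a, Foxa2 and Cebpa between empty and normal livers and nowhere else, and the intervals between UTOpiA and empty livers include 0 or begin at 0.15 or lower.

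Hnf4a (ENSRNOG00000008895, chromosome 3, 159902441 to 159965003, plus strand) is the nuclear receptor on which most differentiated hepatocyte genes depend. Its transcripts begin at alternative starts, an upstream start used in fetal liver and other gut-derived tissues and a downstream start used in adult liver. The deposited counts pool them. The 250 bases before each start are shown because the result for Hnf4a cannot be assigned to either of them. They come from RefSeq (GRCr8, plus strand), and lie 35616 bases apart at chr3:172605970-172606219 and chr3:172641586-172641835. Capitals mark matches to the HNF1 half-site GTTAAT and the ONECUT core ATCAAT, searched on both strands.
Hnf4a upstream start: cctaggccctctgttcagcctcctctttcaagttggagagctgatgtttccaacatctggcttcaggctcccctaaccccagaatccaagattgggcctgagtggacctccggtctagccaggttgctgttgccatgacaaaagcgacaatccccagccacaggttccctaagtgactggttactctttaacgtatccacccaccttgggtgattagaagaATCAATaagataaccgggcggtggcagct
Hnf4a downstream start: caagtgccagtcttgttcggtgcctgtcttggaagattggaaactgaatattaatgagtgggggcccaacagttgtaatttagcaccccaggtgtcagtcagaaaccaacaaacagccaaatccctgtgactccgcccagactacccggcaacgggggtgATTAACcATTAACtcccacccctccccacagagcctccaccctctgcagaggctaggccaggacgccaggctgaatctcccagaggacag
The downstream window held a pair of HNF1 half-sites on the minus strand, 90 to 85 and 83 to 78 bases before the start, and the upstream window held an ONECUT core 29 to 24 bases before its start. Of 33360 promoters of the same length, 6.46% held the HNF1 half-site and 7.06% the ONECUT core. Neither window held the HNF4 half-site AGGTCA (14.1% of promoters), the FOXA core TGTTTAC (3.21%), the C/EBP core TTGCGNNA (2.91%) or, on the gene's strand, the TATA box TATAAA (8.06%).

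Hnf4a was measured at 549, 582 and 574 CPM (read counts relative to the library total, after TMM scaling) in normal livers, at 303, 196 and 234 CPM in empty livers and at 338, 233 and 451 CPM in UTOpiA livers. Every ACLF liver lay below every normal liver, and the empty and UTOpiA groups overlapped, with UTOpiA replicate 2 among the empty livers. Hnf4a fell by 1.22 on the log2 scale in the empty group against normal (standard error 0.27, adjusted p = 0.00511, edgeR's quasi-likelihood test). With library-total scaling the value was -0.67, under 2-fold and thus not called (edgeR adjusted p = 0.0214). Relative to the median of all genes it was -1.27, against -1.26 under TMM. Such values relative to the median nearly agree by construction, here and below, because scaling moves all genes by a similar amount. They cannot tell which scaling is right. Hnf4a was not called in the limma settings on TPM either, at -0.72 in each. Between UTOpiA and empty livers the log2 fold change was 0.48 (95% interval -0.12 to 1.08, edgeR adjusted p = 0.573), an interval that holds both no difference and a 2-fold one. Against normal livers the UTOpiA value was -0.74 (interval -1.34 to -0.14, edgeR adjusted p = 0.0524).

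The genes whose profile over the 9 livers was most like that of Hnf4a were Etfb (electron transfer flavoprotein subunit), Dcaf11, Mgst1 (microsomal glutathione transferase), Nudt16 and Atrn. Likeness was the root mean square difference of log2 CPM after subtracting each gene's own mean, and it was 0.0622 for Etfb and 0.128 for Atrn, out of 12542 candidate genes. All 5 were also nearest on the TPM scale. The nearest other member of the network was Prox1 at 0.312. The members are far fewer than the candidate genes, so this distance cannot be set against that of Etfb.

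Nr5a2 (ENSRNOG00000000653, chromosome 13, 53750473 to 53870428, minus strand), a nuclear receptor of bile acid and cholesterol genes, was the member with the smallest fold changes under TMM scaling. It was measured at 79.4, 74.3 and 70.4 CPM in normal livers, 89.2, 62.8 and 58.9 CPM in empty livers and 68.8, 61.5 and 84.5 CPM in UTOpiA livers. All 3 groups overlapped. The log2 fold change was -0.087 (interval -0.51 to 0.33) for empty against normal livers and 0.026 (interval -0.39 to 0.44) for UTOpiA against empty livers, so that a 2-fold difference lay outside both intervals. On the TPM scale, however, all empty livers (35.2, 25.9 and 26.6 TPM) lay above all normal livers (23.1, 22.0 and 20.3 TPM). With counts scaled to the library total alone, the log2 fold change of Nr5a2 was 0.45 (edgeR adjusted p = 0.0337), while the median of all genes moved from 0.045 to 0.60 under that scaling, and relative to this median Nr5a2 stood at -0.15, against -0.13 under TMM scaling. Nearest to Nr5a2 in profile were Chfr, Nbr1 and Tec (0.0577 for Chfr).

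Among the FOXA paralogs, Foxa2 was called lower in empty than in normal livers, and Foxa1 and Foxa3 were not. Foxa2 (ENSRNOG00000013133, chromosome 3, 142383278 to 142387481, plus strand), which also governs fasting and bile acid genes, was measured at 70.5, 44.0 and 30.01 CPM in normal livers, 15.7, 11.1 and 21.1 CPM in empty livers and 34.5, 23.5 and 22.2 CPM in UTOpiA livers. In CPM no empty liver reached a normal liver, and no UTOpiA liver fell to the level of an empty liver. UTOpiA replicate 1 lay above normal replicate 3. In TPM, however, UTOpiA and empty livers overlapped, with empty replicate 3 above UTOpiA replicate 3. Foxa2 fell by 1.59 on the log2 scale in the empty group (standard error 0.35, adjusted p = 0.00513, edgeR's quasi-likelihood test). With limma on log2(TPM + 1) the value was -0.98 and no longer past the threshold (adjusted p = 0.0557), nor was it past it in the other limma settings, and on the TPM scale empty and normal livers overlapped. UTOpiA against empty livers gave 0.74 (interval -0.027 to 1.52, edgeR adjusted p = 0.499), and against normal livers -0.85 (edgeR adjusted p = 0.0757). Without normal replicate 3 the latter was -1.10 and was called (edgeR adjusted p = 0.0340).

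Foxa1 (ENSRNOG00000009284, chromosome 6, 78545804 to 78549669, minus strand) was measured at 27.5, 20.9 and 16.1 CPM in normal livers, 13.9, 8.04 and 11.1 CPM in empty livers and 12.5, 15.7 and 14.3 CPM in UTOpiA livers. In CPM every ACLF liver lay below every normal liver, but in TPM both ACLF groups overlapped the normal livers. TPM was 24.4, 18.8 and 14.1 in normal, 16.8, 10.1 and 15.2 in empty and 14.2, 20.9 and 12.8 in UTOpiA livers. The log2 fold change of Foxa1 was -0.96 in the empty group (standard error 0.25, adjusted p = 0.0101, edgeR's quasi-likelihood test), short of 2-fold and thus not called. It was called without normal replicate 3 (-1.14) or without empty replicate 1 (-1.17), and with library-total scaling it was -0.41 (edgeR adjusted p = 0.245). UTOpiA livers differed from empty livers by 0.36 (interval -0.19 to 0.91, edgeR adjusted p = 0.641) and from normal livers by -0.60 (edgeR adjusted p = 0.0779).

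Foxa3 (ENSRNOG00000014256, chromosome 1, 79920752 to 79930263, minus strand), a FOXA paralog with targets in glucose metabolism, was not called in any comparison. It was measured at 31.1, 25.5 and 29.9 CPM in normal livers, 24.6, 27.2 and 20.0 CPM in empty livers and 33.8, 28.5 and 45.1 CPM in UTOpiA livers. Normal and empty livers overlapped, and all 3 UTOpiA livers lay above all 3 empty livers, as they did in TPM (29.7, 29.4 and 31.3 against 22.9, 26.5 and 21.3). Foxa2 and Foxa3 were the members, 2 of 9, whose UTOpiA and empty livers did not overlap in CPM with the UTOpiA side higher, where 6.15% of all genes had that arrangement. In TPM only Foxa3 kept it. The log2 fold change of Foxa3 was 0.58 (interval 0.15 to 1.01), which did not pass the adjustment over all genes (edgeR adjusted p = 0.395, range 0.106 to 0.816 over 20 alternative settings). Against normal livers Foxa3 was at -0.27 in empty livers (edgeR adjusted p = 0.273) and at 0.31 in UTOpiA livers (edgeR adjusted p = 0.224). The former became 0.28 with library-total scaling (edgeR adjusted p = 0.146), and relative to the median of all genes it was -0.31 under TMM and -0.32 under library-total scaling. The latter became 0.65 with library-total scaling (edgeR adjusted p = 0.00793) and 0.58 in limma on log2(TPM + 1) (adjusted p = 0.0217), both short of 2-fold, and in TPM all UTOpiA livers lay above all normal livers (21.3, 17.9 and 20.4). Relative to the median of all genes it was 0.26 under TMM and 0.22 under library-total scaling.

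Because the paralogs were read in the same liver, their shares of the summed FOXA level do not depend on the scaling between libraries. Foxa2 made up 49.8%, 43.9% and 35.6% of the summed TPM in normal livers, 25.6%, 21.6% and 36.5% in empty livers and 39.3%, 31.1% and 24.6% in UTOpiA livers. Foxa3 made up 23.4%, 27.3% and 38.0% in normal livers, 42.9%, 56.7% and 37.1% in empty livers and 41.1%, 40.3% and 53.5% in UTOpiA livers. Foxa1 stayed between 19.6% and 31.5% in all 9. Mean Foxa2 shares were 43.1%, 27.9% and 31.7% and mean Foxa3 shares 29.6%, 45.6% and 45.0% in normal, empty and UTOpiA livers, but normal and empty livers overlapped in both (two-sided exact permutation test, p = 0.2 each), so that a difference between the paralogs was not shown. The Foxa3 share did not overlap between UTOpiA and normal livers (exact permutation p = 0.1, the smallest that 3 livers against 3 allow, 0.45 after Benjamini-Hochberg adjustment over 9 tests). The summed FOXA level averaged 70.0, 52.5 and 68.0 TPM, and its UTOpiA livers lay above the empty livers (exact permutation p = 0.1, adjusted p = 0.3 over 3 tests).

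The C/EBP paralogs bind the same sequence, Cebpa being associated with the metabolic, non-dividing hepatocyte and Cebpb with the acute-phase response. Cebpa (ENSRNOG00000010918, chromosome 1, 91363492 to 91366164, plus strand) and Cebpb (ENSRNOG00000057347, chromosome 3, 164424515 to 164425910, plus strand) are compact genes with a single exon. The 250 bases before their starts are shown to set the promoters of these paralogs side by side (RefSeq, GRCr8, plus strand, chr1:96896334-96896583 and chr3:176816755-176817004). Capitals mark the C/EBP core and the TATA box.
Cebpa: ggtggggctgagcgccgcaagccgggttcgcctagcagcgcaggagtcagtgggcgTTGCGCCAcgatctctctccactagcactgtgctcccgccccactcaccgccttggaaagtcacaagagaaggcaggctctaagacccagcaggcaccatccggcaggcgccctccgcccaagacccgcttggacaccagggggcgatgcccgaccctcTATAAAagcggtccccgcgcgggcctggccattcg
Cebpb: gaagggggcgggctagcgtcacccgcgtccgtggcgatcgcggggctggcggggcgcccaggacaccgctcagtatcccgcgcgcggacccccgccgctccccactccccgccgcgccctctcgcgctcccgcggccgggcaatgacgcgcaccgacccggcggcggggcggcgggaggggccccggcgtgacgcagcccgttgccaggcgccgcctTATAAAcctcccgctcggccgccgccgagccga
Both held a TATA box, 35 to 30 bases before the start in Cebpa and 33 to 28 bases before it in Cebpb. The Cebpa window also held a C/EBP core, 194 to 187 bases before the start, a sequence found in 2.91% of promoters. The guanine and cytosine content was 67.2% for Cebpa and 80.0% for Cebpb.

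Cebpa was measured at 337, 359 and 454 CPM in normal livers, 112, 162 and 84.0 CPM in empty livers and 236, 123 and 229 CPM in UTOpiA livers. All ACLF livers lay below all normal livers, and UTOpiA replicate 2 lay within the range of the empty livers. Cebpa fell by 1.69 on the log2 scale in the empty group, the largest change among the 9 (standard error 0.32, adjusted p = 0.00226, edgeR's quasi-likelihood test), and it was called in that comparison under all 20 alternative settings, at values from -1.97 to -1.15. Between UTOpiA and empty livers the value was 0.72 (interval 0.021 to 1.41, edgeR adjusted p = 0.469). Cebpa in UTOpiA livers stood at -0.97 against normal livers, just short of 2-fold, and was called without UTOpiA replicate 1 (-1.13) or UTOpiA replicate 3 (-1.10). Closest to Cebpa in profile were Slc25a1 (the mitochondrial citrate carrier), Nit2 and Akr1c14, at 0.116 for Slc25a1, and all 3 were also nearest in TPM.

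Cebpb was measured at 65.6, 70.2 and 84.8 CPM in normal livers, 59.8, 135 and 65.3 CPM in empty livers and 60.5, 46.4 and 86.4 CPM in UTOpiA livers. Empty replicate 2 stood far above the other 8 livers, among which the other empty livers lay just below the lowest normal liver and the UTOpiA livers spanned both. The log2 fold change was 0.24 for empty against normal livers (interval -0.51 to 0.98, edgeR adjusted p = 0.579) and -0.43 for UTOpiA against empty livers (interval -1.18 to 0.32, edgeR adjusted p = 0.694). Both turned sign without empty replicate 2, to -0.24 and 0.044. With library-total scaling the former was 0.78 (edgeR adjusted p = 0.0362) and in limma on log2(TPM + 1) 0.66 (adjusted p = 0.0911), while relative to the median of all genes it was 0.18 under library-total scaling and 0.19 under TMM. Nearest to Cebpb in profile were Tiparp, Lysmd3 and Il6r, a gene for the interleukin-6 receptor (0.185 for Tiparp).

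Within a liver, the ratio of Cebpb to Cebpa separated all 3 groups. The ratio of their TPM was 0.372, 0.374 and 0.358 in normal livers, 1.02, 1.60 and 1.49 in empty livers and 0.491, 0.725 and 0.722 in UTOpiA livers. Every empty liver lay above 1, every normal liver below 0.4, and the UTOpiA livers lay between them with no overlap on either side. On the log2 scale the mean ratio differed from that of normal livers by 1.87 in the empty group and by 0.79 in the UTOpiA group, and UTOpiA livers differed from empty livers by -1.08. Each of the 3 two-sided exact permutation tests gave p = 0.1, the smallest that this design allows and 0.1 after adjustment over the 3, so that none could pass 0.05. The difference between UTOpiA and empty livers stayed between -1.28 and -0.90 when any 1 of the 6 livers was left out. The ratio is free of library scaling, but not of the mixture of cells, since myeloid cells also express Cebpb.

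**Figure D4:**
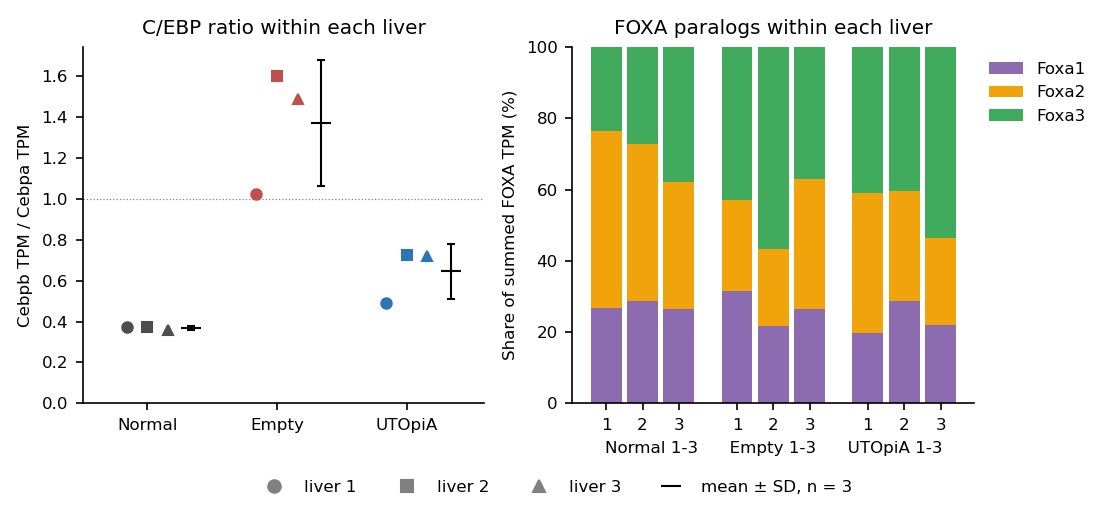
Left, ratio of Cebpb to Cebpa TPM in each liver with the mean ± SD (n = 3), the dotted line marking equal levels. Right, shares of Foxa1, Foxa2 and Foxa3 in their summed TPM (%) as stacked bars, 1 bar per liver. The ratios do not overlap between groups (0.358 to 0.374, 1.02 to 1.60 and 0.491 to 0.725 in normal, empty and UTOpiA livers), while the FOXA shares of normal and empty livers do.

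Prox1 (ENSRNOG00000003694, chromosome 13, 108382399 to 108443294, plus strand), a corepressor of Hnf4a and Nr5a2, was measured at 115, 122 and 119 CPM in normal livers, 83.4, 80.8 and 58.1 CPM in empty livers and 90.3, 73.6 and 101 CPM in UTOpiA livers. In CPM normal livers lay close together and above all 6 ACLF livers. In TPM they still lay above the empty livers, but UTOpiA replicate 1 (22.85) passed normal replicate 1 (22.73). The log2 fold change of Prox1 was -0.68 in the empty group (standard error 0.18, adjusted p = 0.0112, edgeR's quasi-likelihood test), short of 2-fold and thus not called. With library-total scaling its value was -0.14 (edgeR adjusted p = 0.426) and relative to the median of all genes it was -0.74, against -0.72 under TMM. UTOpiA livers differed from empty livers by 0.25 (interval -0.15 to 0.65, edgeR adjusted p = 0.657) and from normal livers by -0.43 (edgeR adjusted p = 0.0811). Lymphatic endothelium is another source of Prox1 transcripts, and the summed TPM of 4 of its markers was 38.6 to 44.5 in normal livers, 120 to 148 in empty livers and 66.3 to 71.1 in UTOpiA livers. Of the 4, Ccl21, Flt4 and Pdpn were called higher in empty than in normal livers, and most of the difference in the sum was Ccl21, with a mean of 3.28 TPM in normal and 71.5 TPM in empty livers. Lyve1, most of the sum in normal livers, was not called, with means of 35.8 and 38.2 TPM. Among the genes closest to Prox1 in profile were Usp32 and Kdm8 (0.0802 for Usp32).

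Onecut1 (ENSRNOG00000008095, chromosome 8, 81766041 to 81793577, plus strand), which acts in both hepatocyte and bile duct development, was measured at 41.8, 45.8 and 14.8 CPM in normal livers, 12.1, 22.2 and 10.5 CPM in empty livers and 43.2, 21.4 and 28.2 CPM in UTOpiA livers. Normal replicate 3 lay among the empty livers, and UTOpiA replicate 1 lay among the higher normal livers. The log2 fold change was -1.19 for empty against normal livers (interval -2.24 to -0.15, edgeR adjusted p = 0.0591). It was called without normal replicate 3 (-1.56) or without empty replicate 2 (-1.60), and in DESeq2 (-1.18, adjusted p = 0.0254), and was at -0.66 with library-total scaling (edgeR adjusted p = 0.234). UTOpiA against empty livers gave 1.05, the largest estimate of the 9 in that comparison, with an interval from 0.0072 to 2.09 (edgeR adjusted p = 0.481). UTOpiA livers stood at -0.14 against normal livers (interval -1.17 to 0.88, edgeR adjusted p = 0.823). Its paralog Onecut2 had less spread: it fell by 1.36 on the log2 scale in the empty group (standard error 0.14, adjusted p = 0.000125, edgeR's quasi-likelihood test), and in UTOpiA against empty livers it was at 0.87 with an adjusted p of 0.170.

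Beyond the 9, 29 other transcription factors and coregulators of the hepatocyte network were tested. Between empty and normal livers 1 was called higher and 8 lower, with a median of -0.72, where 20.7% of all genes were called higher and 11.1% lower. The acute-phase factor Cebpd, a further C/EBP paralog, rose by 4.58 on the log2 scale (edgeR adjusted p = 0.000200), from 3.16 to 4.54 TPM in normal livers to 73.0 to 224 TPM in empty livers and 25.8 to 47.6 TPM in UTOpiA livers. Srebf1, which drives lipid synthesis, fell by 4.31, the clock-output factor Hlf by 1.81, the bile acid receptor Nr1h4 by 1.55 and the shared nuclear receptor partner Rxra by 1.49. With library-total scaling the counts were 5 higher and 2 lower. Between UTOpiA and empty livers edgeR called 0 of the 29, with 3 at an unadjusted p under 0.05 (10.3% of all genes) and 1 called lower by DESeq2, and the median was 0.30. Between UTOpiA and normal livers Cebpd was called higher (2.87), and Srebf1 (-3.65), Hlf (-2.44), Hnf4g (-1.79), Ppara (-1.29) and Nr1h4 (-1.03) were called lower, where 18.2% of all genes were called higher and 6.81% lower. With library-total scaling these counts were 4 higher and 3 lower.

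**Figure D5:**
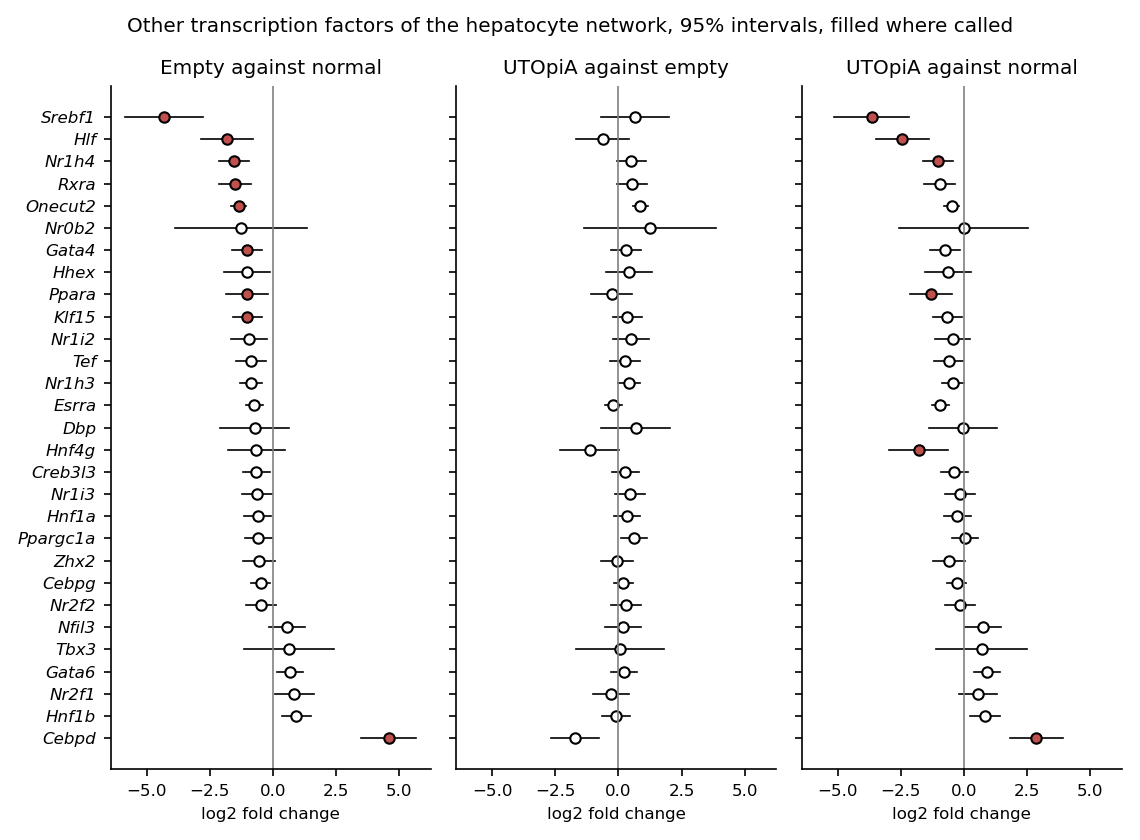
Log2 fold change with 95% interval for the 29 other factors in the 3 comparisons (edgeR, filled where called), ordered by the value in empty against normal livers. Filled points are 9, 0 and 6 from left to right, and Cebpd is the called factor on the higher side.

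Genes long known to be bound by or to depend on the 9 factors were counted by factor, with no test of a list. Of 26 genes of the Hnf4a list, 13 were called lower and 1 higher between empty and normal livers, with a median of -1.02 on the log2 scale, beside 11.1% of all genes called lower and 20.7% higher. Those lower included Pklr (liver pyruvate kinase, -4.36), Otc (urea cycle, -3.51), Fabp1 (fatty acid binding, -3.42) and Apoa2 (-3.22), and the one higher was Pck1 (gluconeogenesis, 3.10). Between UTOpiA and empty livers 0 of 26 were called by edgeR, with 6 at an unadjusted p under 0.05 (10.3% of all genes), and 21 of the 26 estimates were above 0 (median 0.51). Between UTOpiA and normal livers 7 were called lower and 1 higher (2 higher with library totals), beside 6.81% and 18.2% of all genes.

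The same shares of all genes stand beside the counts of the other lists. Of 10 genes of the FOXA list, 3 were called lower in empty livers (Alb -3.08, Ttr -2.99, Cps1 -2.05) and 2 higher, Igfbp1 (7.61) and Pck1, with a median of -0.67. Of 10 tested genes of the Cebpa list, 5 were called lower, led by Otc, Alb and Cps1, and Pck1 was called higher. With library-total scaling 3 of this list were called lower. Alb, Ttr, Pck1, Cps1 and Otc each stand in more than 1 of these lists. Of 7 tested genes of the Nr5a2 list, 2 were called lower, among them Apoa1 (-1.04), and 1 was with library totals. Between UTOpiA and normal livers, 4 of the Cebpa list were called lower (1 with library totals) and 1 higher. In that comparison the FOXA list had 3 lower and 2 higher, and the Nr5a2 list 1 lower and 0 higher. Beside these stand 6.81% of all genes called lower and 18.2% higher.

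Of 14 tested acute-phase genes with C/EBP beta sites, 9 were called higher and 0 lower in empty than in normal livers, among them Lcn2 (7.62), A2m (5.64), Lbp (5.41) and Orm1 (4.01). In UTOpiA against normal livers 9 were called higher and Hamp, the iron hormone hepcidin, was lower (-1.58), a call lost with library totals. Of 4 tested genes of the fetal liver list, Cd24 (6.17) and Gpc3 (4.52) were called higher in empty livers, and Igf2bp3 (-1.84) and Afp (-1.15) lower, 1 of these with library totals. Cd24 is also a bile duct gene, and all 7 cholangiocyte markers were called higher in the same comparison. Between UTOpiA and empty livers edgeR called none of the genes in these 5 lists, with 2 of 10 FOXA, 1 of 10 Cebpa, 1 of 7 Nr5a2, 2 of 14 acute-phase and 1 of 4 fetal liver genes at an unadjusted p under 0.05, beside 10.3% of all genes. DESeq2 called 1 acute-phase gene higher. The medians in that order were 0.50, 0.49, 0.14, 0.35 and -0.16.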

How the data were processed

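Poly(A) RNA-seq was performed on 9 rat livers, 3 per group. The authors deposited raw read counts per Ensembl gene and TPM (abundance per gene length) for the same libraries. The submitters' processing notes name Trimmomatic, HISAT2, featureCounts and the build rn6, whereas the methods name Cutadapt and a mouse build, and the library kit also differs between them. Gene coordinates are as given in the deposited tables, which place Foxa2 on the plus strand, whereas RefSeq (GRCr8) places it on the minus strand. The strand setting of the counting was not given in the sources used here. Groups came from the sample titles.

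Counts were analysed in R 4.3.3 with edgeR 4.0.16 (filterByExpr, TMM factors of 0.802 to 1.32, robust quasi-likelihood fit of all 9 libraries with 1 mean per group). Calls needed a change above 2-fold and, after Benjamini-Hochberg adjustment over 14089 genes, a p under 0.05. Alternatives were DESeq2 1.42.0, limma 3.58.1 on log2(TPM + 1) or log2(TPM + 0.1), other scalings and filters, a replicate block and leaving out each library, and the scripts were tested on simulated data. Ratios within a liver used exact two-sided permutation tests. TPM served for levels compared between genes and CPM for levels compared between livers. Intervals are 95%. All 9 members are named. Of each gene list, those called were named up to 4 per direction by size of change, and likeness genes were the 5 (Hnf4a) or 3 (others) nearest with a mean CPM of at least 1, and a few genes that this rule names are not reported here. The members and lists were chosen with earlier results of these data known. Promoters of 6 members were in the RefSeq table used here.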

Additional observations from a re-analysis of the deposited data

How the results depend on the processing

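Of the 540 fold changes recomputed for the 9 factors (20 alternatives in each of 3 comparisons), 486 kept their direction and call, 11 gained a call, 7 lost it and 36 turned sign, all of the last in Foxa3, Cebpb, Onecut1 and Nr5a2, which were not called. The cause of a change was not tested, except that dropping the fold requirement or a filter changes counts by construction. With the replicate number as a block, 3 members were lower in empty than in normal livers, as without it, and no other call on a member or count of calls moved by over 1.5 times. Same-numbered livers were not alike: of 9 such pairs, 0 had a correlation of deviations over 0.1 (range -0.183 to 0.0638). A differently numbered pair, empty replicate 3 and UTOpiA replicate 2, reached 0.288. Whether livers shared a batch or day was not tested. Between empty and normal livers, 1 member was called lower by each limma setting and 5 with no fold requirement, 3 to 5 leaving out 1 library each (5 without normal replicate 3). Between UTOpiA and normal livers this count was 1 with no fold requirement and 0 to 1 leaving out 1 library (1 without normal replicate 3, UTOpiA replicate 1 or UTOpiA replicate 3). Foxa3 in empty against normal livers became 0.23 in limma on log2(TPM + 1) with and without a filter, 0.24 on log2(TPM + 0.1) and 0.28 with library totals. In that order, Nr5a2 became 0.39, 0.39, 0.41 and 0.45 in empty against normal, -0.16, -0.16, -0.17 and -0.17 in UTOpiA against empty and 0.23, 0.23, 0.24 and 0.28 in UTOpiA against normal livers, where Cebpb became 0.085, 0.085, 0.086 and 0.13 and Onecut1 0.25, 0.25, 0.27 and 0.21. With at least 10 counts in every library, Nr5a2 was 0.014 in empty and 0.022 in UTOpiA against normal livers. Leaving out 1 library each gave -0.24 to 0.44 for Cebpb and -0.30 to 0.025 for Nr5a2 in empty against normal, -0.70 to 0.044 for Cebpb and -0.11 to 0.24 for Nr5a2 in UTOpiA against empty, and -0.51 to 0.12 for Onecut1 and -0.20 to 0.038 for Nr5a2 in UTOpiA against normal livers. Over all genes, those higher in empty than in normal livers numbered 4477 with library totals and 1644 with 10 counts in every library, against 2916. Those lower numbered 689, 744 and 668 in the 3 limma settings, 682 with library totals and 3036 with no fold requirement, against 1560. Between UTOpiA and normal livers, 1384 were higher with 10 counts in every library against 2563, and 484, 510, 456, 486 and 2285 were lower in those 5 settings against 959. Between UTOpiA and empty livers, DESeq2 called 52 higher and 74 lower, each limma setting 1 higher, and leaving out 1 library each gave 0 to 32 higher and 0 to 22 lower, against 0 (without empty replicate 2, 26 and 22, and 32 and 17 when UTOpiA replicate 2 was left out). With library totals, 5 of the 29 other factors were higher and 2 lower in empty livers, and 4 higher and 3 lower in UTOpiA livers, against normal livers, the Hnf4a list had 2 higher in UTOpiA livers, the Cebpa list 3 lower in empty and 1 in UTOpiA livers, the acute-phase list 0 lower in UTOpiA livers, the Nr5a2 list 1 lower and the fetal list 1 lower in empty livers. DESeq2 called 1 other factor lower and 1 acute-phase gene higher between UTOpiA and empty livers, and in the Nr5a2 list 1 higher in empty and 2 lower in UTOpiA than in normal livers. The FOXA shares and the C/EBP ratio kept their side of the threshold, which 3 livers per group cannot pass, and 0 of the 3 likeness genes of Foxa2 and Onecut1 were nearest on the TPM scale. Depth was not limiting for the members, the lowest count being 150 (Foxa1, empty replicate 2).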
